A study of Mus musculus with 12 samples.

Results

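Open chromatin of embryoid bodies that lacked Foxk1 was compared with that of control embryoid bodies at day 10 of mesodermal differentiation. The comparison was defined by the labels: every library labelled day 10 was taken, which gave 4 of the 12 libraries of the study, 2 labelled Foxk1_KO and 2 labelled Control. The 8 libraries of days 3 and 5, from Foxk1 KO and iHA-Foxk1 embryoid bodies, were used for a later lookup only. Both arms came from mouse embryonic stem cells grown with LIF on irradiated fibroblast feeders. Feeders were reduced by a short plating step, after which the cells formed shaken embryoid bodies in serum medium with ascorbic acid, transferrin and monothioglycerol. All 4 libraries were made without doxycycline (NoDox). The labels name the iHA-Foxk1 line and Foxk1 KO cells for the study, but at day 10 the control is given only as Control, so its line is not stated. Which part of Foxk1 was deleted and how many KO clones were used are not stated either. Whether both libraries of an arm came from separate differentiations is not stated, so the spread between them may be technical and p-values measure only that spread.

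Foxk1 is a forkhead transcription factor of the Foxk family, whose other member is Foxk2. Foxk proteins bind DNA through the forkhead domain and recruit the Sin3 histone deacetylase complex, and they are known as repressors of autophagy genes and as activators of glycolysis genes. In muscle, Foxk1 is known for its role in the myogenic progenitors that repair injured tissue. ATAC-seq reads out open chromatin through Tn5 transposase, which inserts where DNA is accessible, and in most cell types the most regularly open sites are the starts of active genes, many of them GC-rich. A summit is the point of highest signal within a called peak.

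Start windows of 6 genes are shown because the arms differed in the share of summits at gene ends, where calls were made in both directions. Each window covers 250 bases before to 50 after a gene start, from RefSeq (GRCm38.p6, the assembly of mm10), 5′ to 3′ on the gene's strand. Capitals mark the stretch from the first to the last day 10 summit of the region there. Hey2 (chr10:30842734-30843033, minus strand) and Isl1 (chr13:116309639-116309938, minus strand) encode developmental transcription factors of the heart. Psmc6 (chr14:45329574-45329873, plus strand) encodes an ATPase subunit of the proteasome cap. Hdac2 (chr10:36974294-36974593, plus strand) encodes a deacetylase of the Sin3 complex. In these 4 windows a summit was found in both control libraries and in neither KO library. Mpc1 (chr17:8283537-8283836, plus strand), a subunit of the mitochondrial pyruvate carrier, and Pkm (chr9:59656326-59656625, plus strand), a pyruvate kinase, had a compared summit in both KO libraries and in neither control library. Control summits outside the compared sets lay within the Mpc1 region and 27 bp from the Pkm region. When gene-end summits were ranked among themselves, as described below, the Isl1, Mpc1 and Pkm regions were no longer called.
Hey2: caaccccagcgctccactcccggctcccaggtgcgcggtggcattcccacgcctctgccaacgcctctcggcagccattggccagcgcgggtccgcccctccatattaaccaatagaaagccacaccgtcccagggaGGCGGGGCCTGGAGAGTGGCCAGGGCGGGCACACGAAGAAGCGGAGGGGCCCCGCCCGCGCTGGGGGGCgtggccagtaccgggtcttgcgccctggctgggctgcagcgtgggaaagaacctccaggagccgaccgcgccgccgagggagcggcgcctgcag
Isl1: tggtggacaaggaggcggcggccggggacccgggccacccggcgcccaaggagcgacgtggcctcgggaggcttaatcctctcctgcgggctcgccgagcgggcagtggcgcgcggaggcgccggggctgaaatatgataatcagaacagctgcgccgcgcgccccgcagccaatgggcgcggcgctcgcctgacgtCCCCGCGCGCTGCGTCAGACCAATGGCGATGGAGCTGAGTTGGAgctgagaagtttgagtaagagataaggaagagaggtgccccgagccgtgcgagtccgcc
Psmc6: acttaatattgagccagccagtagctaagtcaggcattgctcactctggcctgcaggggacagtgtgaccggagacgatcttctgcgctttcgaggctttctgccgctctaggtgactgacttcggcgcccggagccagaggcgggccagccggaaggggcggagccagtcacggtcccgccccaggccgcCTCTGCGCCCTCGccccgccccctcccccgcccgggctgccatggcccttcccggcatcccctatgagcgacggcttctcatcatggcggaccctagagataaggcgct
Hdac2: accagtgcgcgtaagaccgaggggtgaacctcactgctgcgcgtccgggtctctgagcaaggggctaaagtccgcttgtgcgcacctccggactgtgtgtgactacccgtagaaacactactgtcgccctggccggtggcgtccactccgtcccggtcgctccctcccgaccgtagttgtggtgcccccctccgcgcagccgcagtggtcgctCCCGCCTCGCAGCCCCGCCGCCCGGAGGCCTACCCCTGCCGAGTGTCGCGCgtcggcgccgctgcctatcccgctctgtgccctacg
Mpc1: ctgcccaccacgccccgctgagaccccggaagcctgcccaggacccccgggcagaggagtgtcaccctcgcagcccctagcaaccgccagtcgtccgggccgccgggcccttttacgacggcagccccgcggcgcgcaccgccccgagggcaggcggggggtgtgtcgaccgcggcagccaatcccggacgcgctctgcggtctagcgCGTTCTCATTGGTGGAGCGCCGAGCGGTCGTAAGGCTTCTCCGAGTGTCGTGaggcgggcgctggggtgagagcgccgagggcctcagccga
Pkm: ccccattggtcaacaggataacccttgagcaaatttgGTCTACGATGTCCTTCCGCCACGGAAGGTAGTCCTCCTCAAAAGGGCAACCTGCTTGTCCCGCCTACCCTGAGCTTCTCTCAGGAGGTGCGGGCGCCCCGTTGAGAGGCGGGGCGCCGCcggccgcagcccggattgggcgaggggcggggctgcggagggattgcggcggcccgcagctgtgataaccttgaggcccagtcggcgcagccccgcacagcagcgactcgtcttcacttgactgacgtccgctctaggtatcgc

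On chromosomes 1 to 19 and X the control lists held 10548 and 7764 summits and the KO lists 4028 and 4755. Read depth is unknown, because the lists hold 1 scored position per peak and no read counts. Every list was therefore reduced to its 4028 best-scored summits, which took all of the first KO list, 84.7% of the second, and 38.2% and 51.9% of the control lists. The last score compared was 11.8 and 8.02 in the control libraries and 1.85 and 4.25 in the KO libraries (−log10 scale). List length moved with the arm, and its part in the results was not tested. A region was made of summits less than 250 bp apart. Regions in both libraries of an arm and in neither of the other are called control-only or KO-only. With 2 against 2 libraries a two-sided exact permutation test cannot give a p below 0.333, so the day 10 values carry no test.

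At day 10 the KO summits lay less often at gene ends and more often inside genes or between them. A summit was counted at a gene end when it lay within 1 kb of either end of a protein-coding gene. Among compared summits 72.7% and 68.7% were at gene ends in the control libraries (70.7% ± 2.84, SD, n = 2), and 52.6% and 57.2% in the KO libraries (54.9% ± 3.27, SD, n = 2). The arms did not overlap, and KO minus control was −15.9 percentage points. Gene bodies held 15.8% ± 1.16 of control and 20.6% ± 1.11 of KO summits, and the space between genes 13.5% ± 1.69 and 24.5% ± 2.16 (SD, n = 2). In such bulk material fewer cells with an open site and a less open site in each cell cannot be told apart.

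The gap was present in every bin of the compared ranks. Of the 500 best-scored summits, 33.8% and 29.2% were at gene ends in the control libraries and 10.4% and 13.4% in the KO libraries. In the later compared bins of 500 the control shares ran from 67.8% to 82.6% and the KO shares from 52.8% to 67.8%. In 8 of 8 bins each KO library was below each control library. Beyond the compared ranks the control share fell, to 48.6% at ranks 9501 to 10000 in the first control library and 61.8% at ranks 7001 to 7500 in the second. Full lists gave a mean of 66.5% in the control and 54.7% in the KO, a difference of −11.7 percentage points.

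**Figure D1:**
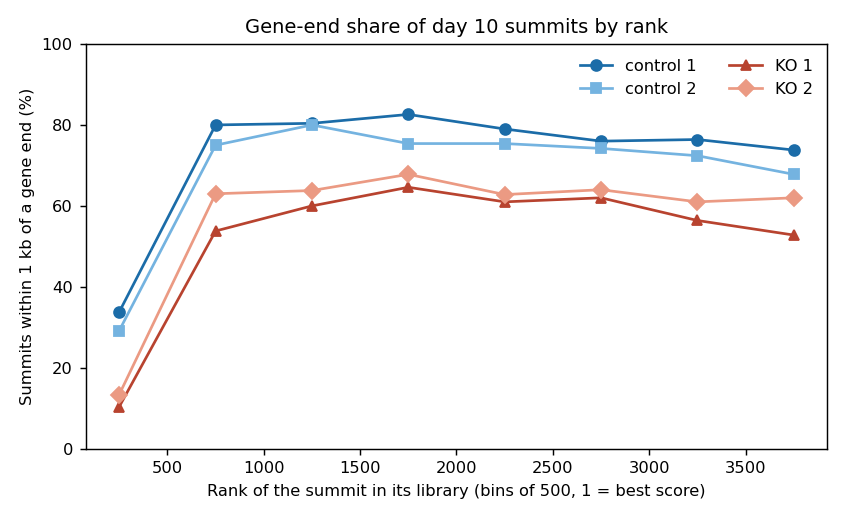
Share of summits within 1 kb of a gene end (vertical axis, percent) in bins of 500 summits by rank (horizontal axis, 1 = best score), with 1 line for each of the 4 day 10 libraries. Both KO lines run below both control lines in 8 of 8 bins, from 10.4% and 13.4% against 33.8% and 29.2% in the first bin.

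The merged summits made 7198 regions, of which 3634 were in both libraries of at least 1 arm. All 4 libraries shared 1730 of them, and 1107 of these were at gene ends. Control-only regions numbered 427 (11.8% of the 3634) and KO-only regions 359 (9.88%). The control-only regions were mostly at gene ends, 343 of 427 (80.3%, exact 95% binomial interval 76.2 to 84.0), with 66 in gene bodies and 18 between genes. KO-only regions were mostly elsewhere: 66 of 359 were at gene ends (18.4%, 14.5 to 22.8), 126 in gene bodies and 167 between genes. These intervals cover counting error only. Among reproducible gene-end regions 15% were control-only and 2.88% KO-only, and among those away from gene ends 6.25% were control-only and 21.8% KO-only.

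This division by class depended on ranking all summits of a library together. When gene-end summits were ranked among themselves (2117 per library, the length of the shortest set), 158 regions were control-only (8.73% of 1809) and 125 KO-only (6.91%). When the remaining summits were ranked among themselves (1911 per library), 252 were control-only (14.8% of 1697) and 173 KO-only (10.2%), so that the larger side changed. This ranking was chosen after the data had been seen. Of the 343 control-only gene-end regions 144 (42.0%) were called in that way too, and they made up 91.1% of the 158. Of the 293 KO-only regions away from gene ends 145 (49.5%) were called again, 83.8% of the 173.

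**Figure D2:**
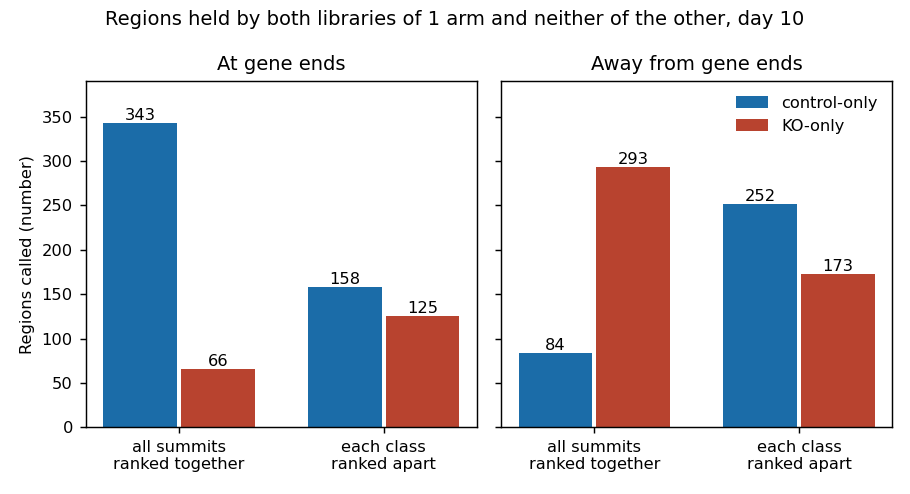
Number of day 10 regions (vertical axis) held by both libraries of 1 arm and by neither of the other, at gene ends (left) and away from them (right), with all summits ranked together or each class ranked apart. At gene ends the counts go from 343 and 66 to 158 and 125, and away from them from 84 and 293 to 252 and 173.

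Both kinds of call also differed in what the other arm's full lists held. Of the 343 control-only gene-end regions 300 had no KO summit of any score within 250 bp and 281 had none within 1 kb. Of the 66 KO-only gene-end regions 50 had a lower-ranked control summit within 250 bp, and 1 had none within 1 kb. That region lay 10 bp from the zinc finger gene Zfp996 on chromosome 12. Of the 293 KO-only regions away from gene ends 221 had a control summit within 250 bp and 40 had none within 1 kb. KO lists entered almost whole and control lists did not, so absence from a KO list and absence from a control list do not have the same reach. In 10 places a control-only and a KO-only region lay within 1 kb of each other, and 2 of these were at gene ends, at Zfp384 and at Sp1, which encodes a factor that binds GC boxes.

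The best-ranked control-only gene-end regions were at D3Ertd751e and Hey2. Hey2 encodes a basic helix-loop-helix repressor that acts downstream of Notch signals in heart and vessels. Its region (chromosome 10, 30842828 to 30842896, 45 bp from the gene end) had ranks 572 and 719 in the control libraries and scores of 30.6 and 19.4. Neither KO list had a summit within 1 kb of Hey2 at any score, and the nearest was 39736 bp away. D3Ertd751e (chromosome 3, 41742592 to 41742593) had ranks 513 and 432. The next were Thnsl1 (ranks 1106 and 542), Tada2b, an adaptor of histone acetyltransferase complexes (602 and 1084), and Ndfip2, an adaptor of Nedd4 ubiquitin ligases (578 and 1190). They were followed by 2010109A12Rik, Gm6712 and Cep97, whose product caps centrioles. Of these 8 regions Tada2b was the only one with a KO summit of any score within 1 kb, 26 bp away.

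Genes of the Notch pathway had gene-end summits more often in the control libraries than in the KO libraries. Of 28 genes 8 and 8 had a compared gene-end summit in the control libraries and 4 and 5 in the KO libraries. Over all 21631 protein-coding genes the numbers were 3447 and 3243 against 2426 and 2652, so the count over all genes was also higher in both controls. Of the 5 Notch genes reproducible in an arm, Hey2 was control-only. Maml1, a coactivator of the Notch transcription complex, Numb, an inhibitor of Notch, and Adam10, a protease that cleaves Notch receptors, had summits in all 4 libraries. At gene level 15.3% of 2772 reproducible genes were control-only (423) and 1.91% KO-only (53).

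Hey1, the close relative of Hey2, had a region 230 bp from its gene end with ranks 2606 and 1152 in the control libraries. The first KO library had no summit within 1 kb of Hey1. The second had 1 at rank 3941, which lay 316 bp from the control region. With gene-end summits ranked apart, Hey1 and Hey2 were both control-only. They were 2 of 5 reproducible genes of the list, beside 9.12% over all genes in that ranking. The list then had 6 and 6 genes in the controls and 4 and 3 in the KO. Over all genes there were 2527 and 2521 against 2426 and 2439. Adam10 had ranks 1139 and 713 in the control and 1894 and 1350 in the KO, and was the only Notch gene among those in all 4 libraries whose ranks did not overlap between the arms. Over all gene-end regions in all 4 libraries both control ranks were ahead in 336 of 1107 (30.4%). Notch2, a receptor, had rank 1973 in the first control, 4207 in the second and 3851 in the second KO library. Jag1, a ligand, had ranks 5126 and 5131 in the controls and 4236 in the second KO library, all outside the compared sets. The receptors Notch1 and Notch3 had no gene-end summit in any library, and Rbpj, the DNA-binding partner of the cleaved receptors, had none either.

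Among 30 cardiac regulators 3 and 3 genes had a compared gene-end summit in the control and 1 and 3 in the KO libraries. Isl1, which marks second heart field progenitors, was control-only together with Hey2. They were 2 of only 3 reproducible genes of the list, beside 15.3% over all genes. With gene-end summits ranked apart the list had 2 and 2 genes against 1 and 0. The Isl1 region (chromosome 13, 116309698 to 116309741, 10 bp from the gene end) had ranks 3131 and 3391 and scores of 14.1 and 9.03 in the controls, and the nearest KO summit of any score was 116747 bp away. With gene-end summits ranked apart, the Isl1 region fell outside the compared sets of both control libraries. Over full lists, which are longer in the controls, 8 and 6 cardiac regulators had a summit in the controls and 1 and 3 in the KO, where over all genes there were 7468 and 5698 against 2426 and 3089. The core cardiac factors Gata4, Tbx5 and Mef2c had none in any library. Other regulators had a compared summit in a KO library alone. They were Gata6 in the first (rank 3700), and Tbx20 (3893) and Tbx3 (3971) in the second. The longer full control lists held Gata6 at 8391 and 7476, Tbx3 at 8658 and 6259, and Tbx20 at 5351 in the first. Of 24 contractile genes, Atp2a2, the calcium pump of the sarcoplasmic reticulum, had a compared summit in the first control library (rank 2593), and none had one in the other libraries. Tnnt2, Tpm1 and Ttn had no gene-end summit in any list.

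Other cell types left few marks at gene ends. None of 20 endothelial, 18 haematopoietic, 8 smooth muscle or 14 endoderm genes had a gene-end summit in any of the 4 full lists, and of 16 neural genes 1 had a summit, in the first control library. Of 14 fibroblast or feeder genes Vim, an intermediate filament gene, was control-only (ranks 1479 and 2737), and full lists gave 3 and 2 genes in the controls and 0 and 0 in the KO, beside the counts over all genes just given, which also fall with list length. The part of feeder cells in the results was not tested. Of 20 pluripotency genes 3 and 2 had a compared summit in the controls and 1 and 3 in the KO, and Klf5 had 1 in all 4 libraries. The label of mesodermal embryoid bodies could not be checked from these lists, since the markers of each lineage were mostly without a summit in both arms.

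**Figure D3:**
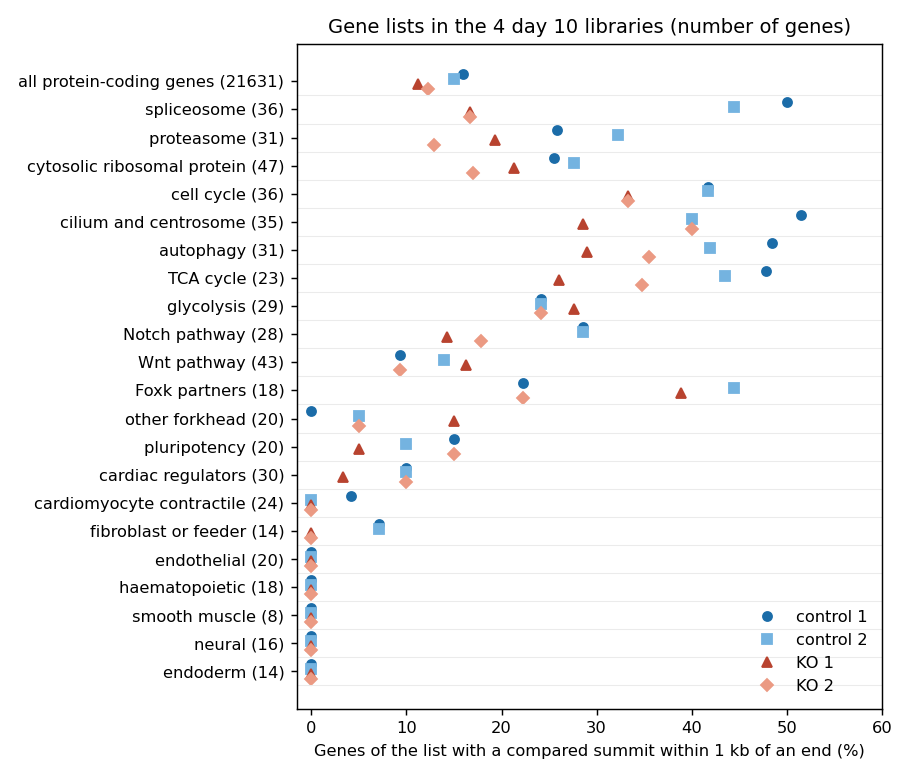
Percent of the genes of each list with a compared summit within 1 kb of a gene end (horizontal axis) in the 4 day 10 libraries, with the number of genes in parentheses. Both controls lie above both KO libraries for all protein-coding genes and for the spliceosome list, while endothelial, haematopoietic, smooth muscle, neural and endoderm genes are at 0 in all 4 libraries.

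Foxk1 itself does not check the labels here. A peak list cannot show a deletion of unstated extent, and gene-end summits of Foxk1 were weak in both arms. The first control library had 1 at rank 7498 (score 6.45) and the first KO library 1 at rank 3954 (score 3.06), while the other two libraries had none. Foxk2, the paralogue, had summits at ranks 4683 and 3044 in the control libraries (scores 10.6 and 9.64) and none in either KO list. Over full lists Foxk2 was thus present in the controls alone, but its rank in the first control was outside the compared set. The control lists are longer, and 2117 protein-coding genes were control-only over full lists where 3 were KO-only. Of 18 genes of Foxk partners 4 and 8 had a compared summit in the controls and 7 and 4 in the KO, so the arms overlapped. Hdac2 was control-only, with ranks 1857 and 2339, and the nearest KO summit was 56405 bp away. It was 1 of 4 reproducible genes of the list, beside 15.3% control-only over all genes. Sap30 and Sap130, subunits of the Sin3 complex, and Gsk3b, a kinase of Foxk1, had summits in all 4 libraries. Sap30 ranked higher in both controls (1533 and 700) than in both KO libraries (3793 and 2639). Hdac1 had ranks 4869 and 1993 in the controls and 3385 in the second KO library. Among 20 other forkhead genes Foxj3 was KO-only within the compared sets (ranks 3777 and 3484), and both control lists held it outside the compared sets, at 5168 of 10548 and 6290 of 7764 summits.

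With all summits ranked together, spliceosome genes showed the widest gap among the 21 lists. Of 36 genes 18 and 16 had a gene-end summit in the control libraries and 6 and 6 in the KO libraries. Of 13 reproducible genes 6 were control-only (46.2%, against 15.3% over all genes) and none was KO-only. They were Snrpd2 and Snrpd3, proteins of the Sm ring, U2af1, which recognises the end of introns, Prpf3, a component of the U4/U6 particle, and the splicing regulators Srsf3 and Srsf11. Snrpd2 had ranks 1161 and 1122 in the controls, and the nearest KO summit of any score was 17787 bp away. Snrpd3 had ranks 1825 and 3782, U2af1 2757 and 3315, Prpf3 2906 and 3156, and Srsf3 3183 and 1824. None of these 6 genes had a gene-end summit in a full KO list. Srsf11 had a second control-only region 4880 bp inside the gene (ranks 1683 and 809), the best-ranked one away from gene ends with no KO summit within 1 kb. The gap narrowed with gene-end summits ranked apart: 11 and 8 genes against 6 and 6, with Snrpd2 and Srsf11 control-only and Snrpa and Sf3b2 KO-only. As a share of the list it was then narrower than that of the TCA cycle genes (11 and 9 against 6 and 8 of 23). By that ranking 9.12% of 2214 reproducible genes were control-only (202) and 5.96% KO-only (132).

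Proteasome genes had gene-end summits in 8 and 10 of 31 cases in the controls and in 6 and 4 in the KO. Of 6 reproducible genes 3 were control-only (50%, against 15.3% over all genes): Psmc6, Psma7, a subunit of the catalytic core, and Psmd8, a subunit of the cap. Psmc6 had ranks 1232 and 1059, and the nearest KO summit was 21273 bp away. Psma7 had ranks 1623 and 3397, with the nearest at 17632 bp. Psmd8 had ranks 2809 and 3367, and the second KO list held a summit there at rank 4438, beyond the compared set. With gene-end summits ranked apart the arms overlapped, at 5 and 5 genes against 6 and 3, and Psmc6 was the one still called. It was then 1 of 4 reproducible genes, beside 9.12% control-only over all genes in that ranking. Psma2, Psma5 and Psmc4 had summits in all 4 libraries. Of 47 cytosolic ribosomal protein genes 12 and 13 had a summit in the controls and 10 and 8 in the KO. Rpl18 was control-only (ranks 3382 and 3454) and Rps19 KO-only (ranks 1921 and 2706 in the KO, 4626 and 6797 in the longer full control lists). Each was 1 of 9 reproducible genes, beside 15.3% control-only and 1.91% KO-only over all genes. Ranked apart, the direction of the ribosomal list turned, with 7 and 7 genes in the controls and 10 and 8 in the KO. None was control-only. Rpl7 and Rps19 were KO-only, 2 of 7 reproducible genes, beside 5.96% over all genes in that ranking.

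Autophagy genes, a known target group of Foxk factors, had summits in 15 and 13 of 31 cases in the controls and in 9 and 11 in the KO. Bnip3, a receptor for the removal of mitochondria (ranks 3968 and 2174), and Atg9a, which supplies membrane to autophagosomes (3638 and 2347), were control-only. They were 2 of 11 reproducible genes (18.2%), near the 15.3% over all genes. No gene of the list was KO-only, where the share over all genes was 1.91%. Neither Bnip3 nor Atg9a had a KO gene-end summit at any score. Yet with gene-end summits ranked apart no autophagy gene was called and the counts overlapped, at 9 and 10 against 9 and 11. Atg5, needed to extend the autophagosome membrane, had summits in all 4 libraries and ranked higher in the KO (1740 and 1931) than in the controls (3978 and 2586). Uvrag ranked higher in the controls (590 and 824 against 894 and 1838). Of 29 glycolysis genes 7 and 7 had a summit in the controls and 8 and 7 in the KO, and 2 of 9 reproducible genes were KO-only (1.91% over all genes). Pkm had ranks 1711 and 3906 in the KO and 7967 and 6724 in the full control lists, whose ranks run further. Mpc1 had ranks 3378 and 3844 in the KO, 4055 in the first control list and none in the second. Ranked apart, neither was called and Slc2a1, a glucose transporter gene, was KO-only, 1 of 5 reproducible genes beside 5.96% over all genes. Pgk1, another glycolytic enzyme gene, went the other way, with ranks 218 and 249 in the controls and 1137 and 1353 in the KO.

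TCA cycle genes had summits in 11 and 10 of 23 cases in the controls and in 6 and 8 in the KO, and Sdha, a subunit of succinate dehydrogenase, was control-only with ranks 2001 and 1735 (4048 in the full second KO list). Cell cycle genes had summits in 15 and 15 of 36 cases against 12 and 12. Cdkn2c, an inhibitor of Cdk4 and Cdk6, was control-only (2710 and 1576) and remained so with gene-end summits ranked apart. In that ranking Cdkn1b, of the same list, was KO-only. Cilium and centrosome genes had summits in 18 and 14 of 35 cases against 10 and 14, so the arms met. Cep97 (657 and 1274), Ift74, an intraflagellar transport gene (1288 and 942), and Plk4, the kinase that starts centriole duplication (2426 and 4008), were control-only, and the first pair stayed so with gene-end summits ranked apart. Control-only genes were 1 of 9 reproducible TCA cycle genes, 1 of 13 cell cycle genes and 3 of 15 cilium genes, beside 15.3% over all genes. With gene-end summits ranked apart these were 1 of 8, 1 of 11 and 2 of 11, beside 9.12%. Cdkn1b, KO-only in that ranking, was 1 of 11 cell cycle genes, beside 5.96% over all genes. Wnt pathway genes had 4 and 6 of 43 against 7 and 4, with none called and Gsk3b, Fzd4 and Fzd5 in all 4 libraries. Both controls were above both KO libraries in the spliceosome, proteasome, ribosomal protein, Notch, autophagy, TCA cycle, cell cycle and fibroblast lists, as they were over all genes, and not in the glycolysis, Wnt, Foxk partner, other forkhead, cilium, pluripotency and cardiac regulator lists. With gene-end summits ranked apart this held for the spliceosome, Notch, TCA cycle, fibroblast and cardiac regulator lists and over all genes (2527 and 2521 against 2426 and 2439), and no longer for the proteasome, autophagy and cell cycle lists (cell cycle 12 and 13 against 12 and 11) or the ribosomal list, which turned.

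**Figure D4:**
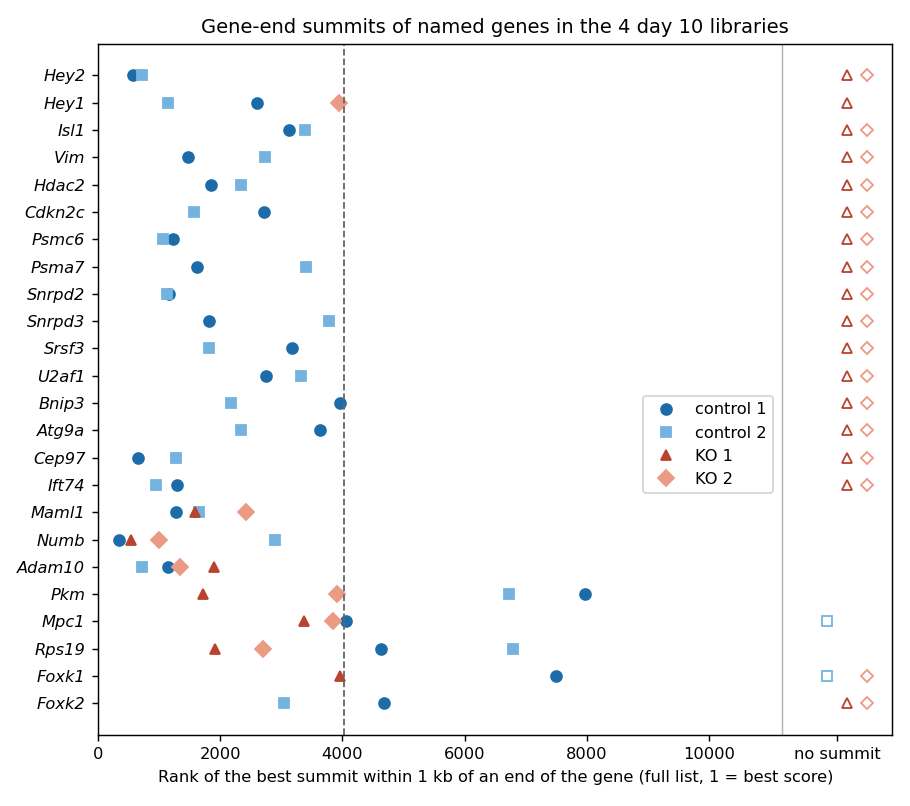
Rank of the best gene-end summit (horizontal axis, full lists, 1 = best score) for 24 named genes in the 4 day 10 libraries; open symbols at the right mark lists without a summit and the dashed line the last rank compared, 4028. From Vim to Ift74 both controls have a rank and both KO libraries none, while for Pkm and Rps19 the KO ranks are inside the compared set and the control ranks beyond it; full lists differ in length, so ranks past the line are not compared.

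Away from gene ends the best-ranked calls of both directions were partly the same places. On chromosome 17 a control-only region (39848333 to 39848403, ranks 158 and 143) lay 480 bp from a KO-only region (39847844 to 39847853, ranks 187 and 151). RefSeq places the 18S ribosomal RNA pseudogene Rn18s-rs5 and the noncoding gene AY036118 there. Similar pairs lay on chromosome 13 (389 bp apart), on chromosome 16 (291 bp) and near Gm3424 on chromosome 14 (275 bp). At these places both arms had summits, at different positions. Of the control-only regions with no KO summit within 1 kb, those after Srsf11 were near Igf2bp3, an RNA-binding protein gene (ranks 1432 and 1107), inside Actb, the gene of beta-actin (1709 and 1294), and inside Ppfibp1 (1789 and 1285).

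KO-only regions away from gene ends with no control summit within 1 kb were led by a stretch of chromosome 12 (29048239 to 29048294, ranks 628 and 1002), more than 100 kb from a protein-coding gene. The next lay 2666 bp from Wwox on chromosome 8 (995 and 1237), near Gng4 (750 and 1483), near 4930467E23Rik (1050 and 1196) and inside Zdhhc14, a palmitoyltransferase gene (1482 and 948). Gm3115 and Gm8271 followed, members of repeated gene families in which reads may be shared between copies. Regions inside Myh14, a non-muscle myosin gene (ranks 420 and 447), and near H1f7, a germ cell histone gene (761 and 508), were also KO-only, but a control summit of lower rank lay at the same place. The best KO-only gene-end regions were at Adgrf2 (945 and 666), Tom1 (833 and 1355), Uqcrc2, a core subunit of respiratory complex III (867 and 1344), and Rap2a (1744 and 697). Each had a control summit of some rank within 1 kb. The gene ends of Adgrf2, Tom1 and Rap2a also held compared summits in both control libraries. Their best control ranks were 432 and 394 at Adgrf2, 903 and 1643 at Tom1, and 582 and 839 at Rap2a. Uqcrc2 had a control summit in the first library alone, at rank 6776. List genes with a KO-only region in the gene body were Tcf7l2, a Wnt effector (1259 and 725), Rbpj (3813 and 2865), Smarcd3 (2293 and 1559), Foxn3 (3814 and 1848) and Cdk6 (2719 and 3261). Of these only the Smarcd3 and Cdk6 regions had no control summit within 1 kb, the nearest being 35422 and 1407 bp away. KO-only regions between genes lay 79068 bp (2344 and 2673) and 29199 bp (3081 and 2070) from Atg7, and others near Zfp42 and Foxo3. With summits away from gene ends ranked apart Tcf7l2 and Foxo3 were in all 4 libraries and Zfp42 lost the call, while the others stayed KO-only. The Myh14 and H1f7 regions lost the call in that ranking, each with a compared summit in 1 control library.

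Regions in all 4 libraries allowed a graded comparison. Both control ranks were ahead of both KO ranks in 449 of 1730 regions (26%), and both KO ranks were ahead in 330 (19.1%). At gene ends the counts were 336 and 99 of 1107, in gene bodies 53 and 99 of 272, and between genes 60 and 132 of 351. The largest gaps in favour of the control were at gene ends: Trim59 (1192 and 613 in the control, 3556 and 3753 in the KO), Kdsr, an enzyme of sphingolipid synthesis (847 and 441, 3583 and 3177), Gadd45a, a stress response gene (422 and 762, 3024 and 2998), Srebf2, the regulator of sterol synthesis (1020 and 966, 3380 and 3099), and Ahsa2. The largest gaps in favour of the KO lay away from gene ends. They were near Cyp2b23 (3876 and 3465 in the control, 810 and 472 in the KO), inside Pdia3, a disulfide isomerase gene (3749 and 3571, 765 and 1017), near Speer4c, inside Kcnq5 and inside Zfp600, some of which belong to repeated families. Fbxo5, an inhibitor of the anaphase-promoting complex, held both patterns: a region in all 4 libraries ranked 378 and 333 in the control and 2678 and 2365 in the KO, and a KO-only region (1553 and 1464) lay 355 bp from it. Because summits of each class compete for rank with those of the other, these counts share the limit of the calls above.

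In base composition, start windows held by control-only regions were closer to those held by all 4 libraries than to the average start. Of 21020 windows (17251 genes, each of 300 bases) 348 were held by control-only regions, 1097 by regions in all 4 libraries and 44 by KO-only regions. Median GC content was 62.7% in the control-only, 66.0% in the shared and 66.8% in the KO-only windows, against 56.7% in every window. The median ratio of observed to expected CpG was 0.843, 0.865, 0.856 and 0.574. Of gene-end regions on chromosomes with known starts, 85.4% of control-only, 79.7% of KO-only and 86.0% of shared ones lay within 1 kb of a start. Among these the median was 44 bases before the nearest start in control-only and 59 in KO-only regions. This is written −44 and −59, against −85.3 in shared ones. Beyond 300 bp from the start lay 9.41% of these control-only, 21.6% of KO-only and 8.24% of shared regions. The letters GGGCGG, bound by Sp and Klf factors, were found in 75.6% of control-only, 84.1% of shared and 46.6% of every window, both strands searched. CCGGAAG, an Ets motif, was in 24.1%, 21.5% and 11.7%, and ATTGG, the NF-Y motif, in 52.6%, 56.7% and 38.5%. GTAAACA, a forkhead motif, was in 2.30% of control-only windows (8 of 348), 1.28% of shared and 3.03% of every window. The 44 KO-only windows held GGGCGG in 88.6%, CCGGAAG in 13.6%, ATTGG in 47.7% and GTAAACA in 2.27%. None of these letter strings contains another. Of the windows printed above, Hey2, Mpc1 and Pkm held GGGCGG and ATTGG, Isl1 held ATTGG, and Hdac2 held GGGCGG. Psmc6 held GGGCGG and CCGGAAG, and Mpc1 held CCGGAAG too. Isl1 and Psmc6 also held AGATAA. None of the 6 held GTAAACA.

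The day 10 regions were then looked up in the 8 libraries of days 3 and 5, which had no part in choosing them. Each of these lists was reduced to 14519 summits, and a region counted as held when a summit lay within 250 bp. Control-only gene-end regions were held in 95.5% ± 0.906 by the KO and in 91.5% ± 5.14 by the iHA-Foxk1 libraries (SD, n = 4 each). In all, 261 of 343 were in all 8 libraries and 311 (90.7%) in all 4 KO libraries. The regions of Hey2, Psmc6, Snrpd2, Hdac2, Cdkn2c and Bnip3 were in 8 of 8, and those of Isl1 and Hey1 in 7 of 8. Gene-end regions in all 4 day 10 libraries gave 97.4% ± 0.195 and 95.5% ± 3.47, with 1057 of 1107 (95.5%) in all 4 KO libraries. KO minus iHA-Foxk1 was 3.94 percentage points (two-sided exact permutation within days over 36 arrangements, p = 0.111, adjusted over 4 region sets p = 0.444, smallest p possible 0.0556).

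KO-only regions away from gene ends were rarely found earlier: 13.6% ± 1.13 in the KO and 10.7% ± 2.69 in the iHA-Foxk1 libraries, and 233 of 293 (79.5%) were in none of the 8. With all summits of the early lists 94 of 293 (32.1%) were in none. Of the 8 best-ranked ones those at Myh14 and H1f7 and 3 more were in 0 of 8, the 1 on chromosome 16 in 1, and those on chromosome 13 and near Ccr1 in 7. The 8 best-ranked with no control summit within 1 kb, among them Wwox, Gng4 and Zdhhc14, were all in 0 of 8. Regions in all 4 day 10 libraries away from gene ends were held in 47.3% ± 2.67 and 43.4% ± 6.81. KO-only gene-end regions were held in 61.7% ± 5.45 and 63.3% ± 3.58, and control-only regions away from gene ends in 78.0% ± 4.40 and 75% ± 7.01 (SD, n = 4 each). KO minus iHA-Foxk1 was 2.90 percentage points for the KO-only regions away from gene ends (exact permutation p = 0.222, adjusted p = 0.444), −1.52 for KO-only gene-end regions (p = 0.667, adjusted p = 0.778) and 2.98 for control-only regions away from them (p = 0.778, adjusted p = 0.778). By day, the difference was 0 at day 3 and 5.80 at day 5 for the KO-only regions away from gene ends, −4.55 and 1.52 for KO-only gene-end regions, 2.04 and 5.83 for control-only gene-end regions and 0.595 and 5.36 for control-only regions away from them. No difference between genotypes passed, and this design could not have gone below 0.0556. The first iHA-Foxk1 library of day 5 entered whole, as the shortest list, and held 84.3% of the control-only gene-end regions where the other 7 held 92.1% to 96.8%. Day 3 and day 5 peak names carry a duplicate-removal tag that day 10 names lack, so day and processing cannot be told apart, and peak names in both KO day 5 lists carry the tag of another day.

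**Figure D5:**
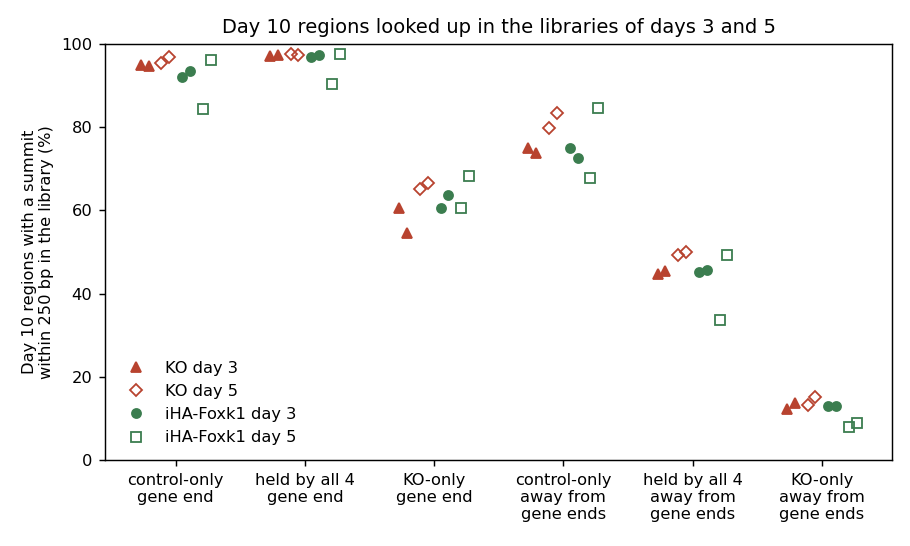
Percent of day 10 regions (vertical axis) with a summit within 250 bp in each library of days 3 and 5, by call and place of the region, with 1 point per library. Control-only gene-end regions lie between 84.3% and 96.8%, and KO-only regions away from gene ends between 7.85% and 15.0%, over the 8 libraries.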

How the data were processed

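ATAC-seq summits of 4 day 10 libraries were compared, with groups taken from the labels. For what the authors ran, the submitters' processing notes name Bowtie2 2.2.4, MACS2 with no version and the build mm10. Summit scores as deposited are −log10 values of p or q, and no source used here says which. Peaks were called per library, per the files' peak names, and the lists hold neither reads nor peak widths.

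Scores served to rank summits inside 1 list and were not compared between lists. Each list was reduced to its 4028 best summits on chromosomes 1 to 19 and X (days 3 and 5: 14519), with ties at the last score broken by position, and summits were merged by single linkage at 250 bp. Genes were 21631 protein-coding genes of the RefSeq table of GRCm38.p6, and the nearest gene was taken within 100 kb. Of 532 symbols in 21 gene lists 531 matched. Named regions were the 8 best-ranked of each call and class, also among those with no summit of the other arm within 1 kb, every list gene whose nearest region was called, the 5 largest rank gaps in each direction, Foxk1 and Foxk2. Not all of these are written out in the text, and other list genes were named as reference. The members, lists and rules were chosen with earlier results of these data known.

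Day 3 and 5 shares were tested by two-sided exact permutation of genotype within days, with Benjamini-Hochberg adjustment over 4 region sets. The effect of other settings is given in the closing section. Calling was tested on simulated lists with planted regions. Python 3.11.15, numpy 2.4.6, pandas 2.3.3 and scipy 1.17.1 were used. Replicate numbers showed no pairing of libraries in rank: rank deviations of libraries with the same number correlated at −0.0105, −0.0603 and −0.0129 at days 3, 5 and 10. These were taken over regions in all 4 libraries of a day, and pairing in other measures was not tested.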

Additional observations from a re-analysis of the deposited data

How the results depend on the processing

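With all summits compared, 2359 regions were control-only and 111 KO-only, and with N divided by 2 there were 237 and 239. Dropping regions with any summit of the other arm nearby left 88 KO-only regions at 250 bp and 41 at 1 kb. Gene ends made up 87.3% of control-only regions with N divided by 2 and 85.7% when a gene end reached to 2 kb. Of KO-only regions they made up 26.7% with merging at 100 bp, 24.2% at 2 kb and 2.44% with no control summit within 1 kb. Gene-end summits ranked apart gave 158 control-only and 125 KO-only regions, and the others ranked apart gave 252 and 173. In rank, 213 regions favoured the control and 174 the KO with N divided by 2. The gene-end difference between summits was −11.7 percentage points over full lists.

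Leaving out 1 library at a time, so that 1 arm rested on 1 library, gave 728 to 1074 control-only and 559 to 1260 KO-only regions, with 75.9% to 81.7% and 26.6% to 34.9% at gene ends. At gene ends they numbered 584 to 851 control-only and 157 to 390 KO-only, and elsewhere 144 to 259 and 370 to 917. In each of these 4 settings control-only regions were the more numerous at gene ends and KO-only ones elsewhere. The gene-end difference of summits ran from −18.2 to −13.6 percentage points. For KO-only gene-end regions at days 3 and 5 the difference ran from −3.16 to 0.884 with 1 library left out: it turned from −1.52 to 0.884 without KO day 3 replicate 2 and to 0.126 without iHA-Foxk1 day 5 replicate 2, and the cause was not tested.

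With the replicate number as a block, the day 3 and 5 differences stayed at 3.94, 2.98, −1.52 and 2.90 percentage points (exact sign-flip p = 0.125, 0.75, 0.75 and 0.375). The numbers showed no pairing of the libraries in rank, and the block changed no call. Of 83 named regions 64 kept their call with all summits, 79 with merging at 100 bp and 67 at 500 bp. With N divided by 2, 44 kept it, 19 lost it and the others had no summit left to compare. No region that could be compared in these settings changed direction. Unknown read depth limits all absences: a KO gene end without a summit may be open below the reach of its list.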

Other observations

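Chromosome 8 held 43 of the 359 KO-only regions (12.0%), 16 of the 427 control-only regions (3.75%) and 6.30% of the 1730 regions in all 4 libraries. Among compared summits it held 5.78% and 6.33% in the control libraries and 6.95% and 7.20% in the KO libraries. The arms did not overlap at gene ends (6.01% and 6.25% against 6.52% and 6.95%) or away from them (5.19% and 6.51% against 7.43% and 7.54%). In the 4028 best summits of days 3 and 5 it held 5.64%, 5.83%, 5.98% and 5.91% in the KO libraries and 5.16%, 5.11%, 5.31% and 6.16% in the iHA-Foxk1 libraries, so that the genotypes overlapped at day 5 and not at day 3. In the 14519 best summits they overlapped at day 3 (5.18% and 5.41% in the KO, 5.14% and 5.25% in iHA-Foxk1), and at day 5 the KO was below (5.21% and 5.19% against 5.26% and 5.36%). Other chromosomes also had day 10 summit shares that did not overlap between the arms. Chromosome 14 held 4.27% and 4.77% in the control and 5.81% and 5.91% in the KO libraries, with 30 KO-only regions (8.36%). Chromosomes 2 (7.35% and 7.35% against 5.93% and 6.28%) and 10 (5.71% and 5.39% against 4.67% and 4.49%) went the other way. Chromosome 8 was picked after its values had been seen, and no test was made.

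Regions within 1 kb of a microRNA hairpin were few, and most of them were called in neither direction. Over all 7198 regions 427 were control-only and 359 KO-only. KO-only regions lay near Mir6546, near Mir207 beside Dnaja1, a chaperone gene, and near Mir210, a microRNA known to respond to low oxygen. Control-only regions lay near Mir707 beside Tbc1d17 and near Mir5130 beside Kctd12. Mir6546, Mir207 and Mir5130 each also had a region within 1 kb that was not called. These names were chosen after the regions had been seen.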
